A study of Drosophila melanogaster with 4 samples.

Results

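The genes examined here encode subunits of Integrator, the RNA-cleaving complex that ends transcription by RNA polymerase II (RNAPII) close to promoters. They were chosen as the 10 rows of the count table named IntS1, IntS2, IntS4, IntS6, IntS7, IntS8, IntS9, IntS11, IntS12 and IntS14, among 13926 genes in all. Of these names 9 are row names of the table, and IntS7 was found through RefSeq, which gives it as a synonym of the row defl (deflated). RNA was prepared from pooled heads of male Drosophila melanogaster at day 50 of adult life (D50), from NelfA*/+ flies and from their control siblings (+/+), with 2 libraries per genotype. NelfA*/+ flies are heterozygous for a P-element insertion in Nelf-A on a w1118 background reached by repeated backcrossing. All flies were reared at the same temperature and light cycle, and the labels name no treatment of either genotype. The insertion is present in every cell of the fly, and each library is a pool of heads, so that cell types and single flies cannot be told apart. Where less RNA of a gene is measured in such heads, fewer cells that use the gene and less RNA per cell cannot be told apart either.

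Integrator binds RNAPII through many subunits that form separate modules. Its cleavage module cuts the nascent RNA, and its phosphatase module brings protein phosphatase 2A (PP2A) to the polymerase, where it removes phosphates that the elongation kinase Cdk9 places. The complex was first known for making the 3' ends of small nuclear RNAs (snRNAs). In Drosophila cells it also ends transcription at many protein-coding genes shortly after the start, on polymerase that is held there by the negative elongation factor (NELF) and the DRB sensitivity-inducing factor (DSIF). NELF-A is a subunit of NELF, and the comparison therefore asks whether the genes of Integrator, which acts on the same paused polymerase, differ in RNA level when Nelf-A is reduced.

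Each library held between 42985746 and 45172099 counts on genes. Nelf-A itself checks the labels. It had 3598 and 3365 normalized counts in +/+ heads against 2386 and 2398 in NelfA*/+ heads, where a normalized count is the read count of a gene divided by the relative library size after TMM scaling. Its NelfA*/+ values were the lower ones throughout, at 68.7% of the control mean. The paper reports a larger reduction of Nelf-A mRNA, measured by other means in the heads of such flies. As markers of the tissue, the rhodopsin gene ninaE had between 1592369 and 1937814 normalized counts and the synaptic gene nSyb between 69888 and 93696. The neuronal gene elav and the photoreceptor gene Arr2 were at or near 0, as were other genes that lie within another annotated gene (1124 of 1124 coding genes nested in another coding gene without a shared exon base were at 0 in all 4 libraries). None of the 10 Integrator genes is nested in this way. A list of 16 gut genes, a sign of gut RNA, summed to 45701 and 38318 normalized counts in +/+ heads against 63657 and 31176 in NelfA*/+ heads. Without its amylase genes the other 14 summed to 607 and 629 for +/+ and to 38603 and 4465 in NelfA*/+ replicates 1 and 2. Library sizes and scaling computed without the gut list changed no call of an Integrator gene.

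No difference between the genotypes was detected for any of the 10 Integrator genes. In the quasi-likelihood test of edgeR, adjusted by the Benjamini-Hochberg method across 9609 genes, 0 of 10 passed an adjusted p of 0.05, where 1.87% of all genes tested passed (0.645% higher and 1.23% lower in NelfA*/+). The smallest adjusted p among the members was 0.519, 0 of 10 had an unadjusted p below 0.05 (background 20.3%), and DESeq2's Wald test also called 0 of 10 (background 9.01%). All 10 passed the filter on low counts. Their log2 fold changes, NelfA*/+ over control siblings, ran from -0.11 (IntS4) to 0.13 (IntS12). The median was -0.033, against 0.011 over all genes tested, with 4 members above 0 and 6 below. Without control sibling replicate 2 or without NelfA*/+ replicate 2 this median had the opposite sign (0.022 and 0.023), so that no common direction could be read from it.

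The width of the intervals limits what these comparisons show. Every 95% interval of the fold change held no change, and the outermost bounds were a log2 value of -0.39 for IntS4 and 0.37 for IntS12. In folds of the control level these bounds are 0.763 and 1.29. All 10 intervals lay above -0.54, the log2 fold change measured for Nelf-A in the same libraries. The interval of Nelf-A itself ran from -0.72 to -0.36, and that of IntS4, with its lower bound of -0.39, overlapped it. Changes within the interval of a gene could not be told from none with 2 libraries per genotype. Summed over the 10 genes, the normalized counts were 10084 and 10395 in +/+ heads against 10395 and 10080 in NelfA*/+ heads, so that each genotype held a library at the higher and a library at the lower value. Scaled to a common library total, in CPM, the sum was 223.1 (95% exact binomial interval 218.8 to 227.5) and 240.9 (236.4 to 245.5) in the control siblings. It was 231.2 (226.8 to 235.7) and 224.3 (219.8 to 228.8) in NelfA*/+ heads, and the intervals cover counting error only.

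**Figure D1:**
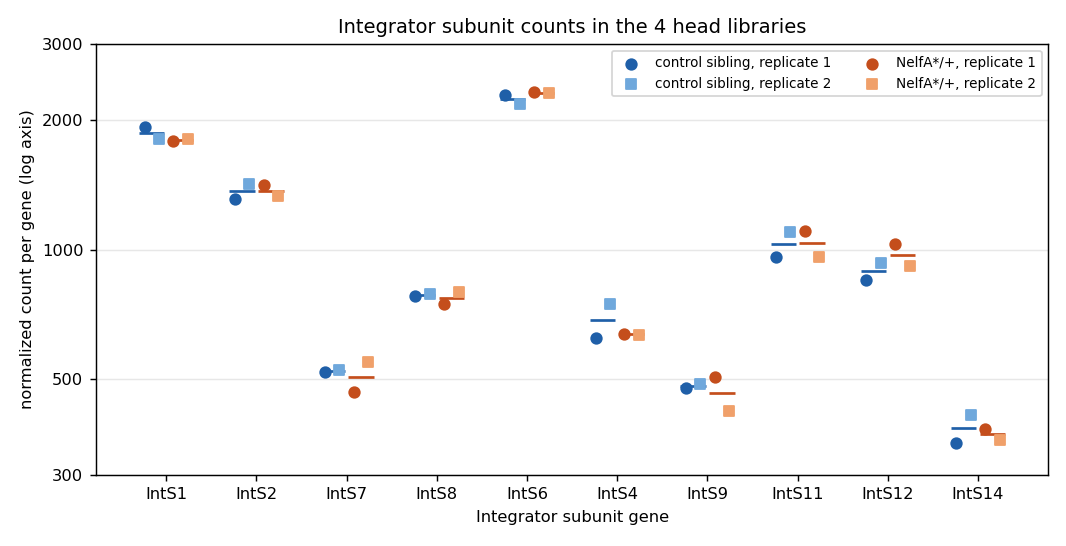
Normalized counts (vertical log axis) of the 10 Integrator genes in each library, as points coloured by library, with a bar at the mean of each genotype. Within a gene the control sibling and NelfA*/+ points lie close together. Genes differ in count far more than genotypes do, from 355 for IntS14 in control sibling replicate 1 to 2323 for IntS6 in NelfA*/+ replicate 1. These counts are not divided by gene length, so part of the difference between genes reflects length.

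The cleavage module consists of IntS11, the RNA endonuclease, IntS9, its partner of the same protein family, and IntS4, the scaffold that holds the pair. IntS11 (FBgn0039691; 3R, 29745337 to 29747513, forward strand, BDGP6) had 959 and 1096 normalized counts in +/+ heads against 1104 and 962 in NelfA*/+ heads. Each genotype thus held a high and a low library, and the means of 1028 ± 97.4 and 1033 ± 100 (SD, n = 2) differed by far less than the replicates. The log2 fold change was 0.0073 (standard error 0.11, edgeR adjusted p = 0.982), with a 95% interval from -0.27 to 0.29. An antisense RNA gene, asRNA:CR46109, covers 668 of the 2043 exon bases of IntS11 (32.7%), and the strand setting of the counting is not given in the sources used here, so that reads from this stretch may be missing from the counts of IntS11.

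IntS9 (FBgn0036570; 3L, 16103432 to 16105627, reverse strand) had 476 and 487 normalized counts in +/+ heads against 507 and 422 in NelfA*/+ heads. The NelfA*/+ libraries lay on either side of the control libraries, and the log2 fold change was -0.052 (standard error 0.12, interval -0.36 to 0.26). IntS4 (FBgn0026679; X, 8555239 to 8558781, reverse strand) had 624 and 746 normalized counts in the control siblings against 636 and 635. Control sibling replicate 2 alone stood high. IntS4 had the lowest fold change of the 10 genes, with a log2 value of -0.11 (standard error 0.11, edgeR adjusted p = 0.641), and without that library its log2 fold change was 0.027. The module summed to 2194 ± 191 (SD, n = 2) normalized counts for +/+ against 2133 ± 161 (SD, n = 2) for NelfA*/+, or 97.2% of the control level.

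The backbone of the complex is built by the large subunits IntS1, IntS2 and IntS7, to which IntS8 attaches as a docking point for the phosphatase. IntS1 (FBgn0034964; 2R, 24037943 to 24044458, forward strand), the longest of these genes, had 1920 and 1806.0 normalized counts in +/+ heads against 1787 and 1805.6 in NelfA*/+ heads. The NelfA*/+ values were the lower ones, but the nearest values of the genotypes were almost equal, and the log2 fold change was -0.053 (standard error 0.072, edgeR adjusted p = 0.735). IntS1 was the only member whose NelfA*/+ values all lay below those of +/+, where 26.0% of all genes tested did so. IntS2 (FBgn0030858; X, 17652761 to 17656818, reverse strand) had 1309 and 1420 normalized counts in the control siblings against 1409 and 1328. Its genotypes overlapped, and its means of 1364 ± 78.7 and 1368 ± 57.6 (SD, n = 2) gave a log2 fold change of 0.0043 (standard error 0.080).

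IntS7 (row defl, FBgn0036038; 3L, 9723423 to 9726706, forward strand) had 520 and 525 normalized counts in +/+ heads against 467 and 548 in NelfA*/+ heads. The NelfA*/+ libraries enclosed the control values, and the log2 fold change was -0.044 (standard error 0.11, interval -0.33 to 0.24). IntS8 (FBgn0289323; 2R, 16850437 to 16854104, forward strand) had 781 and 789 normalized counts against 749 and 797, again with the control libraries inside the range of the NelfA*/+ libraries, and its log2 fold change was -0.023 (standard error 0.072, interval -0.21 to 0.16). Together these 4 genes summed to 4536 ± 6.66 (SD, n = 2) normalized counts for +/+ against 4445 ± 46.1 (SD, n = 2) for NelfA*/+, or 98% of the control level.

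IntS6 links the PP2A enzyme to Integrator. IntS6 (FBgn0261383; X, 5738663 to 5747254, reverse strand) had the most counts of the 10 genes, with 2288 and 2180 normalized counts in +/+ heads against 2323 and 2305 in NelfA*/+ heads. Its NelfA*/+ values were the higher ones in each case, which was so for no other member and for 26.1% of all genes tested. The log2 fold change was 0.051 (standard error 0.068, edgeR adjusted p = 0.728), with an interval from -0.12 to 0.22.

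IntS12 and IntS14 are small accessory subunits. IntS12 carries a PHD finger, a domain that in other proteins reads histone tails, and is anchored on IntS1, while IntS14 belongs to a module at the edge of the complex. IntS12 (FBgn0039459; 3R, 26863376 to 26864559, forward strand) had 851 and 931 normalized counts in +/+ heads against 1029 and 917 in NelfA*/+ heads. It had the highest fold change of the 10, with a log2 value of 0.13 (standard error 0.093, edgeR adjusted p = 0.519), but its genotypes overlapped. Leaving out 1 library moved this value between 0.041 and 0.21, and without control sibling replicate 1 (0.060) or NelfA*/+ replicate 1 (0.041) it was below those of IntS6 (0.083) and IntS7 (0.067), respectively. IntS14 (FBgn0031314; 2L, 1164443 to 1166425, forward strand) had the fewest counts, 355 and 414 against 384 and 361. Its NelfA*/+ libraries lay inside the range of the control libraries, and the log2 fold change was -0.046 (standard error 0.12, interval -0.36 to 0.27). Like Nelf-A, IntS11 and IntS12 are on chromosome arm 3R, and no other member is.

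**Figure D2:**
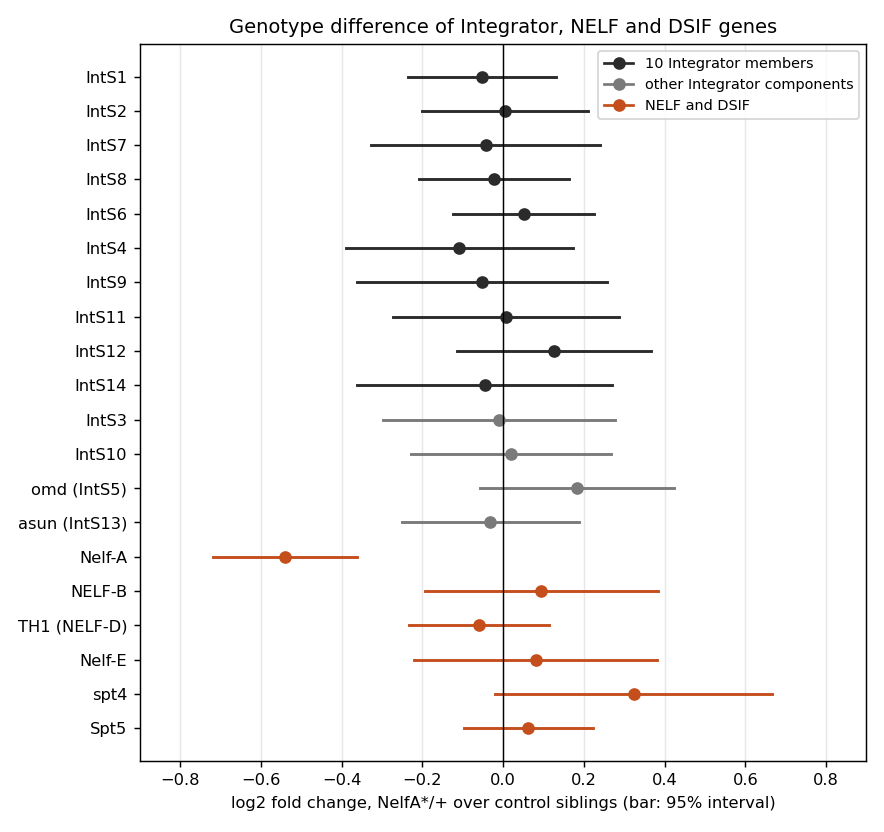
Log2 fold change of NelfA*/+ over control siblings (horizontal axis) for the 10 Integrator members (black), 4 further Integrator components (grey) and the NELF and DSIF subunits (orange), with 95% intervals from edgeR's test as bars. The interval of Nelf-A, from -0.72 to -0.36, stands apart from 0, and those of all Integrator genes hold 0.

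Other components of the complex, taken from a list of their symbols, were examined beside the 10 members. They were IntS3, IntS10, omd (IntS5 in RefSeq) and asun (IntS13 in RefSeq). In edgeR's test 0 of 4 passed (background 1.87%), and 0 of 4 had an unadjusted p below 0.05 (background 20.3%). DESeq2's test also called 0 of 4 (background 9.01%). IntS3, which is also part of a single-stranded DNA-binding complex, had 6294 and 5255 normalized counts in +/+ heads against 5437 and 6025 in NelfA*/+ heads, and its log2 fold change was -0.011 (standard error 0.11). The subunit gene omd had 1042 and 1187 against 1218 and 1312 normalized counts. Both of its NelfA*/+ libraries lay above the control libraries, as for 26.1% of all genes tested, and the log2 fold change was 0.18 (standard error 0.094, edgeR adjusted p = 0.357). For asun and IntS10 the log2 fold changes were -0.032 and 0.020. Over these 14 Integrator genes 6 were above and 8 below the control siblings. A further candidate component was left out, because the sources used here do not give it that role.

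The subunit genes differed in RNA level more than the genotypes did. Levels between genes are given per length, as normalized CPM per kilobase of merged exons. IntS12 stood highest, with 16.9 ± 1.1 (SD, n = 2) in control siblings and 18.5 ± 1.5 in NelfA*/+ heads, followed by IntS11 with 11.3 ± 1.1 and 11.4 ± 1.1. IntS2 (8.35 and 8.38) and IntS6 (8.03 and 8.31) came next and overlapped over the 4 libraries. IntS1 followed with a mean of 6.42. Below it IntS8 (5.35 and 5.27) overlapped IntS9 (5.20 and 5.02), IntS9 overlapped IntS14 (4.48 and 4.34), and IntS14 overlapped IntS4 (4.44 and 4.12). IntS7 was lowest, with 3.64 ± 0.023 and 3.53 ± 0.40. The other neighbours in this order did not overlap in any library. The level of IntS12 was 4.94 times that of IntS7 over all libraries. Within the cleavage module the endonuclease IntS11, the lowest value of which was 10.5, stood above IntS9 (highest value 5.47) and IntS4 (highest value 4.83) in every library. Per coding length the ratio of IntS12 to IntS7 was 5.53, and IntS6, which has long untranslated exons, moved from the fourth to the second place. Per length of the whole gene it was 5.03, with IntS6 in the fifth place. Against these levels, Nelf-A was at 2.83 times the median member in control siblings and 2.01 times in NelfA*/+ heads, in levels per length of exons. IntS3 was at 38.3 ± 4.9 and 38.0 ± 2.8 per length of exons, but per length of the whole gene its mean of 18.1 was close to the 17.7 of IntS12. With nested genes at 0, whole gene spans may have been counted, introns included, so that levels per length depend on this choice.

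**Figure D3:**
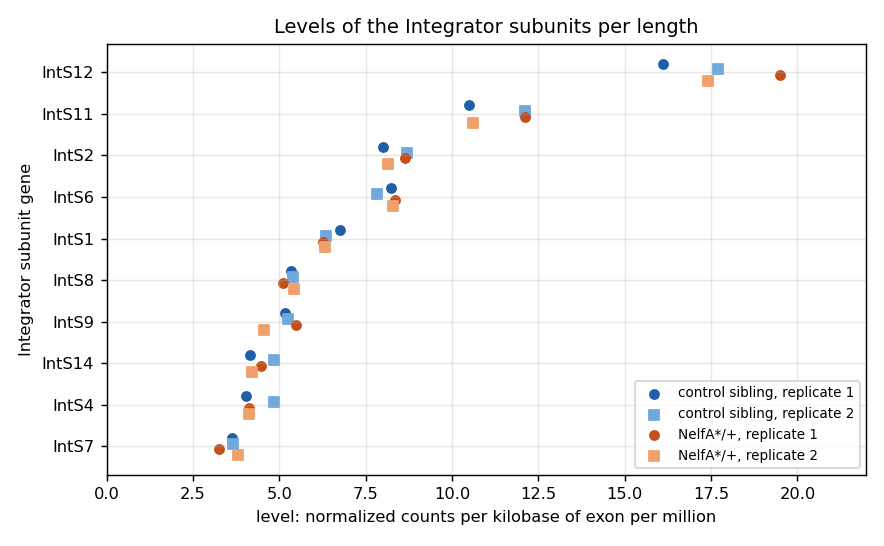
Level of each Integrator gene in each library, in CPM per kilobase of merged exons (horizontal axis), with genes ordered by their mean. IntS12 and IntS11 stand above the other genes in all libraries, and several lower neighbours, such as IntS14 and IntS4, overlap.

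The libraries of a genotype were also compared with each other. Control sibling replicate 2 was above replicate 1 for 8 of 10 genes, and NelfA*/+ replicate 2 was below replicate 1 for 7 of 10, where 51.0% and 50.4% of the 8365 genes with a mean count above 100 did so. For 6 members (IntS2, IntS4, IntS9, IntS11, IntS12 and IntS14) both held, against 33.1% of those genes, while IntS1 and IntS6 in the control siblings and IntS1, IntS7 and IntS8 in NelfA*/+ heads went the other way. These counts were not tested. The difference was largest for IntS4 and IntS14 among the control siblings, with log2 ratios of replicate 2 over replicate 1 of 0.26 and 0.22, and for IntS9 and IntS7 between the NelfA*/+ libraries, with log2 ratios of -0.26 and 0.23. It exceeded counting error (95% exact binomial interval) for 4 of 10 members between the control siblings and for 4 of 10 between the NelfA*/+ libraries. Of the 3631 genes with a mean count in the range of the members 39% and 33.9% did so, so that the members were near the background.

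For IntS11 the log2 ratios of replicate 2 over replicate 1 were 0.19 in the control siblings and -0.20 in NelfA*/+ heads. Its relative Cpsf73, the endonuclease that cuts messenger RNA before the poly(A) tail, had the same order of libraries, with 436 and 506 normalized counts in +/+ heads against 519 and 444 in NelfA*/+ heads (log2 fold change 0.031, standard error 0.13). Cpsf100, the partner of Cpsf73 and relative of IntS9, had 632 and 569 against 578 and 574, with control sibling replicate 1 high instead. The synaptic genes Syt1 and brp moved between the same libraries in the reverse order. Syt1, which encodes a calcium sensor of synaptic vesicles, had 53036 and 30292 normalized counts in +/+ heads against 40731 and 50679 in NelfA*/+ heads, and brp, an active zone scaffold, had 24198 and 14650 against 18837 and 23915. The list of 5 neuronal markers summed to between 114831 and 156525 in the control siblings and between 150204 and 168296 in NelfA*/+ heads, with 1 of its genes, Syx1A, at 0 in every library and elav near 0. The summed photoreceptor markers moved between replicates in the same directions as the 6 members named above. Their list of 5 summed to 1858549 and 1953941 for +/+ against 2212235 and 1982936 for NelfA*/+, with Arr2 at 0, and ninaE had log2 ratios of replicate 2 over replicate 1 of 0.079 and -0.17. The glial marker repo ranged from 2446 to 2596, and the other glial marker, moody, was at 0. The part of these markers in the differences between replicates was not tested.

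**Figure D4:**
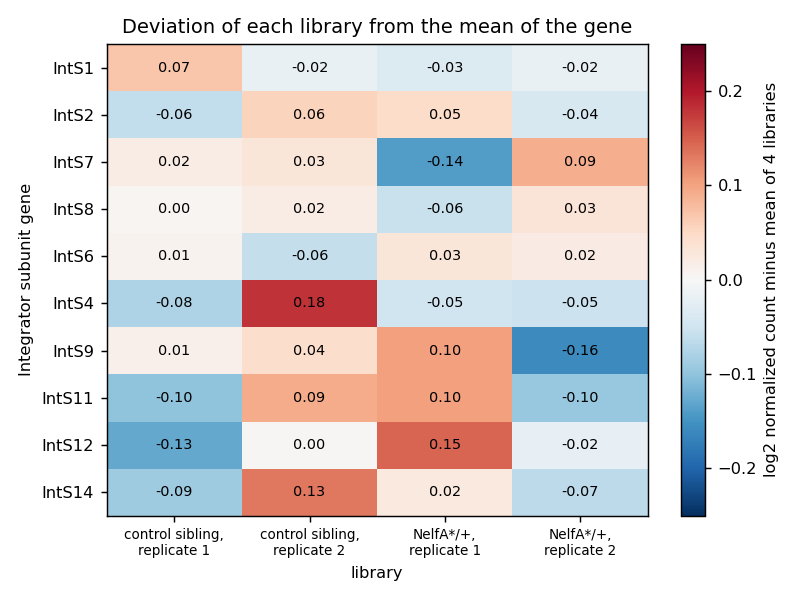
Log2 normalized count of each Integrator gene in each library minus its mean over the 4 libraries, as a coloured grid with the value written in each cell. The largest deviations, 0.18 for IntS4 in control sibling replicate 2 and -0.16 for IntS9 in NelfA*/+ replicate 2, each belong to a single library of a genotype.

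The size of the differences was small beside other genes of like count. The median absolute log2 fold change of the members was 0.048, against 0.12 over the 3631 genes whose mean count lay between those of the lowest and the highest member. The largest absolute value among the members, 0.13, was not exceeded by 52.7% of these genes. Values this small were not limited to the members. Of the other Integrator components, IntS3, IntS10 and asun had log2 fold changes of -0.011, 0.020 and -0.032, while omd had 0.18. The share of each subunit in the summed counts of the 10 genes also stayed close. IntS6 took between 21% and 22.9% of the sum over the 4 libraries, IntS1 between 17.2% and 19.0%, and IntS12 between 8.44% and 9.90%, with the highest value of IntS12 in NelfA*/+ replicate 1.

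Partners of Integrator were examined from lists of genes. Of 46 partner genes, counted with the 4 other Integrator components given above, 43 had enough counts to test. In edgeR's test 1 passed an adjusted p of 0.05, where 1.87% of all genes tested passed. It was the mutated gene Nelf-A (log2 fold change -0.54, standard error 0.069, adjusted p = 0.0411, 0.0537 with the replicate number as a block). Without control sibling replicate 1 or replicate 2 its edgeR adjusted p was 0.166 and 0.0852. Of the other NELF subunits, NELF-B had 344 and 380 normalized counts in +/+ heads against 401 and 372 in NelfA*/+ heads. TH1 (NELF-D in RefSeq) had 1457 and 1449 against 1420 and 1370, and Nelf-E had 457 and 491 against 461 and 542. Their log2 fold changes were 0.095, -0.059 and 0.080, and none passed. Both DSIF subunits lay above the control siblings in both NelfA*/+ libraries, as did 26.1% of all genes tested, without passing, spt4 at a log2 fold change of 0.32 (standard error 0.13, edgeR adjusted p = 0.271) and Spt5 at 0.062 (adjusted p = 0.640).

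The 5 PP2A genes, listed as subunits of PP2A whether or not they join Integrator, had a median log2 fold change of -0.029. Of these 0 of 5 passed in edgeR's or DESeq2's test or at an unadjusted p below 0.05 (background 1.87%, 9.01% and 20.3%). The catalytic subunit gene mts had 23411 and 21447 normalized counts against 22913 and 23105, the highest log2 fold change of the list at 0.037. The lowest was that of tws, a regulatory B subunit that directs PP2A to substrates, which had 10354 and 9010 against 8195 and 8451 (log2 fold change -0.22, standard error 0.092, edgeR adjusted p = 0.281). Both NelfA*/+ libraries of tws lay below the control libraries, as for 26.0% of all genes tested.

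Among 16 genes that form messenger RNA 3' ends, including Cpsf73 and Cpsf100, 0 passed in edgeR's or DESeq2's test and 2 had an unadjusted p below 0.05 (background 1.87%, 9.01% and 20.3%), with a median log2 fold change of 0.040. The highest was Clp, the CPSF30 subunit, with 188 and 163 normalized counts against 229 and 226 (log2 fold change 0.37, edgeR adjusted p = 0.244). The lowest was cbc, a kinase of cleavage factor II, at -0.22 (adjusted p = 0.374). Of the snRNA promoter-binding factors, Pbp95 and Tbp were tested, with log2 fold changes of -0.028 and 0.040, while Pbp45 and Pbp49, which lie within other genes, were at 0 in all libraries.

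The nuclear exosome degrades short RNAs such as those that Integrator releases. Of its 11 listed genes 10 were tested, and 7 of these were lower and 3 higher, with a median log2 fold change of -0.092. However, 0 passed in edgeR's or DESeq2's test (background 1.87% and 9.01%). An unadjusted p below 0.05 was found for 2, which is near the background of 20.3%. Dis3, a catalytic subunit, had 740 and 751 normalized counts in +/+ heads against 552 and 617 in NelfA*/+ heads (log2 fold change -0.35, standard error 0.088, edgeR adjusted p = 0.124). Rrp4, a cap subunit that binds RNA, was the highest, with 271 and 333 against 400 and 352 (log2 fold change 0.32, adjusted p = 0.325). The NelfA*/+ libraries of Dis3 lay below and those of Rrp4 above the control libraries, as for 26.0% and 26.1% of all genes tested.

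**Figure D5:**
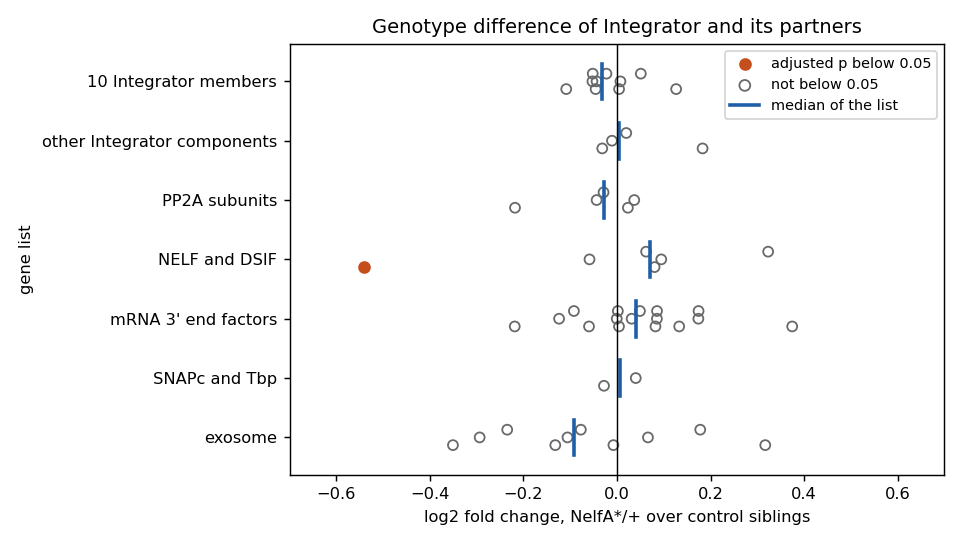
Log2 fold change of NelfA*/+ over control siblings (horizontal axis) for each tested gene of Integrator and of its partner lists, with a blue bar at the median of each list. The only filled point, an adjusted p below 0.05, is Nelf-A at -0.54, and the 10 Integrator members lie between -0.11 and 0.13.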

How the data were processed

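The authors trimmed adaptors with Trim Galore, aligned each library to BDGP6 with STAR 2.5, and used HTSeq-count to assign reads to genes. The deposited values are raw counts for 13926 genes, followed by summary lines. Those lines were left out of library sizes. Reads shared between genes made up 7.47% to 8.00% of each library. A deposited table of the authors' own comparison (fold changes and p-values) was not used. The counting mode and strand setting are not given in the sources used here.

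Counts were compared with edgeR 4.0.16 in R 4.3.3 (filterByExpr, TMM, glmQLFit, glmQLFTest), adjusting p-values across 9609 genes by the Benjamini-Hochberg method, and adjusted p below 0.05 was called. Standard errors and 95% intervals came from the F statistic and its degrees of freedom. DESeq2 1.42.0 and limma 3.58.1 (voom) were alternatives, beside other scalings, filters, a replicate block and leaving out each library. Log2 normalized counts used a pseudocount of 0.5. The steps were tested on simulated counts, in which the planted changes were larger than any measured for an Integrator member. That run therefore does not bear on differences of the size seen here. The labels do not say whether libraries came from separate cohorts of flies, so p-values measure the spread between these libraries. Deviations from the mean of the genotype had a correlation of -0.12 between libraries of the same number (8365 genes, mean count above 100), so the numbers were not taken as pairs. Coordinates and lengths are from the Ensembl annotation of BDGP6, in which 12783 gene names matched by symbol, and synonyms are from RefSeq.

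The members and lists were chosen with earlier results of these data known. Genes named were all members, the other Integrator components, the NELF and DSIF subunits, Cpsf73 and Cpsf100, and the highest and lowest fold change and any called gene of each other partner list. Syt1, brp, nSyb, ninaE, repo and the genes at or near 0 were named from the marker and partner lists after their values were seen.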

Additional observations from a re-analysis of the deposited data

How the results depend on the processing

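No Integrator member passed an adjusted p of 0.05 in any alternative that kept all 4 libraries. Some log2 fold changes of the members changed sign, with library size alone (IntS2 and IntS11) or with a library left out. With library size alone the log2 fold changes of IntS2, IntS11 and IntS10 were -0.022, -0.020 and -0.0051, and the median of the messenger RNA 3' end genes was 0.014. Leaving out each library in turn moved the log2 fold change of IntS2 between -0.056 and 0.065, IntS4 between -0.24 and 0.027, IntS7 between -0.16 and 0.067, IntS8 between -0.067 and 0.021, IntS9 between -0.19 and 0.073, IntS11 between -0.096 and 0.11, and IntS14 between -0.16 and 0.070. It moved IntS1 between -0.096 and -0.011, IntS6 between 0.017 and 0.083, and IntS12 between 0.041 and 0.21, which kept their sign. Among the partners it moved IntS3 between -0.14 and 0.12, IntS10 between -0.051 and 0.087, Nelf-E between -0.041 and 0.19, Cpsf73 between -0.085 and 0.14, Cpsf100 between -0.13 and 0.014, mts between -0.024 and 0.099, Tbp between -0.014 and 0.092, and Pbp95 between -0.20 and 0.16. The medians then ran from -0.055 to 0.023 for the Integrator members, -0.045 to 0.074 for the other components, -0.074 to 0.099 for PP2A, 0.0088 to 0.11 for NELF and DSIF, 0.028 to 0.087 for messenger RNA 3' end genes, -0.081 to 0.10 for Pbp95 and Tbp, and -0.13 to 0.011 for the exosome. The causes were not tested.

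Over all genes, edgeR called 180, and the number was 913 in DESeq2, 82 without the filter on low counts, 359 with robust dispersions, 118 in limma-voom, 297 with the replicate number as a block, 797 with the replicate numbers crossed between genotypes (added after the data were seen), and from 27 to 425 with a library left out. Nelf-A, the 1 called gene of the NELF and DSIF list, was not called without the filter (adjusted p = 0.0584) or with the replicate block (0.0537), where 0 of the list were called, and the list had 0 to 1 called with a library left out. The fits that left out a library had a lone library in a genotype, assumed to vary like the pair of the other. The pairing by number or crossed changed no call of an Integrator member. RefSeq protein lengths were not used here, so the coding length came from the Ensembl annotation. No group had enough libraries for a test of single outlying libraries. With 2 libraries per genotype, differences inside the interval of a gene could not be told from none. The intervals are not adjusted across genes, so a gene whose interval did not hold 0 could also go uncalled. Dis3, for example, had an interval from -0.58 to -0.12 and an edgeR adjusted p of 0.124.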
